A study of Mus musculus with 10 samples.

Results

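The simple epithelial keratins *Krt7*, *Krt8*, *Krt18* and *Krt19* were compared between distal tip cells of the E11.5 and the E17.5 mouse lung. They were found by gene symbol, from a list made with earlier results of these data known, and are 4 of the 17813 genes with a probe set of their own in the deposited array table. The E11.5 group (5 arrays) was tip epithelium microdissected by hand after 5 min in dispase at 16 U/ml. The E17.5 group (5 arrays) was GFP+ cells sorted by flow cytometry from trypsin/EDTA-dissociated lungs, after the mothers had received tamoxifen at E16.5 (150 μg per gram body weight). The labels give the genotype of both groups as *Id2-CreER; Rosa26R-fGFP*, so that *Id2* drove the Cre that set the label, and per the study's methods the sorted cells included some immediate progeny of tip cells. Stage, dissociation and sorting differed together between the groups and cannot be told apart. The labels call the arrays biological replicates, but no source says that they came from separate litters, so p-values measure the spread between these arrays. The number of arrays limits the precision.

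Keratins are the intermediate filament proteins of epithelial cells. A type I keratin (*Krt18*, *Krt19*) and a type II keratin (*Krt7*, *Krt8*) join as obligate heterodimers, and the filaments are tied to desmosomes by desmoplakin and related plakins and to hemidesmosomes by plectin. KRT8 and KRT18 are the first pair made in the embryo and are found in all simple epithelia. KRT7 and KRT19 are typical of ducts, of the airway and of the lung epithelium, and mesothelium, which covers the lung, contains all 4 proteins.

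The sequences before the start sites are shown because the members lie in keratin clusters and all had higher deposited signals at E17.5. The rises differed in size, and that of *Krt18* was a log2 difference of 0.086 after quantile normalization. Relative to *Epcam* and *Cdh1* on the same arrays, only *Krt19* was higher and the other 3 were lower. A promoter entry was matched in the RefSeq table (build GRCm38.p6) for 3 of the 4 members, all but *Krt19*. Each window holds 250 bases before the annotated start and the first 30 bases after it. It is written 5′ to 3′ on the strand of the gene. *Krt7* is at chr15:101412153-101412432 (plus strand), *Krt8* at chr15:102004313-102004592 (minus strand) and *Krt18* at chr15:102027966-102028245 (plus strand). Capitals mark matches on either strand to the E-box CACCTG, the GC box GGGCGG and the TATA box TATAAA, where a match on the other strand appears as its reverse complement and overlapping matches form 1 run.
Krt7: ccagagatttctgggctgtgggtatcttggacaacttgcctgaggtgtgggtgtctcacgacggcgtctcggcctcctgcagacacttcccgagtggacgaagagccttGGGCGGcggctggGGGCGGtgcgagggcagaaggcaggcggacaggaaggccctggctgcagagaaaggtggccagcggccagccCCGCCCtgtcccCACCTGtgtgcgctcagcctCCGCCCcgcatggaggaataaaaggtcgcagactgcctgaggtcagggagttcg
Krt8: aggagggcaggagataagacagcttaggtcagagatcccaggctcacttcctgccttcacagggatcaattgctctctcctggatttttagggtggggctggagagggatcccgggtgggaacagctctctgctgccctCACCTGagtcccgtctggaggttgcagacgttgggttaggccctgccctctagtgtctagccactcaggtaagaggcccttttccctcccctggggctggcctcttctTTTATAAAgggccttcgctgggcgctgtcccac
Krt18: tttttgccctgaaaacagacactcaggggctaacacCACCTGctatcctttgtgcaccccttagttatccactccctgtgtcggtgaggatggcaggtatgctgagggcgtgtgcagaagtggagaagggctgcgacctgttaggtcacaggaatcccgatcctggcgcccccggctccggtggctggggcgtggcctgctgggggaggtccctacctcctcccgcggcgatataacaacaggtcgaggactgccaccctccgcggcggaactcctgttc
The E-box letters CACCTG occurred in all 3 windows, at bases -44 to -39 in *Krt7*, -111 to -106 in *Krt8* and -214 to -209 in *Krt18*, counted from the annotated start. Of 32851 promoter windows of the same length, 19.1% held these letters on either strand. The *Krt7* window held 4 GC boxes, a motif of 34.7% of the windows, and neither of the other windows held one. TATAAA occurred in *Krt8* only, at -1 to 5 and, overlapping it on the other strand, at -3 to 3, against 13.1% of the windows. None of the 3 windows held the AP-1 letters TGANTCA (7.46% of windows), the Grainyhead letters AACNGGTT (1.95%), the ETS letters CCGGAA (14.2%) or the CCAAT box (36.1%). Such matches describe letters and are not binding sites. The motifs were chosen after the sequences were seen, so the matches were not tested against these shares.

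All 4 keratins were higher at E17.5, and *Krt19* rose by more than the other 3. Signals are log2 values as deposited, 1 per probe set and array, and each member had 1 probe set. Calls rest on limma, a linear model fitted over all 17813 genes, with a threshold of 0.05 after Benjamini-Hochberg adjustment. Of these genes, 36.9% were called higher and 31.5% lower, and the median log2 difference was 0.027. For all 4 members every E17.5 array lay above every E11.5 array, as for 32.3% of all genes. Tested apart, the 9705 genes at least as bright as the median probe set gave 48.8% called higher, with a median log2 difference of 0.23. Read against these shares, a call in the upward direction is common in this comparison. Counts of called genes in the lists below have the same background. In an RNA extract of many cells, fewer cells of a type and less RNA per cell cannot be told apart.

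*Krt19*, the type I keratin of ducts and airways that is the smallest of the family, had log2 signals of 11.73, 12.03, 11.83, 12.33 and 12.28 on E11.5 arrays 1 to 5, as the labels number the replicates. At E17.5 they were 14.47, 14.18, 13.95, 14.33 and 14.41. Each E17.5 array was far above each E11.5 array, and the nearest arrays of the 2 stages lay 1.63 apart, more than the full range of either stage. The mean rose from 12.04 ± 0.26 to 14.27 ± 0.21 (SD, n = 5 each), a 4.69-fold change (log2 difference 2.23, SE 0.14, 95% interval 1.92 to 2.54, limma adjusted p = 2.6e-08). This difference was larger than that of 88.6% of the genes. Ranked within each array, 701 to 1198 probe sets were brighter than that of *Krt19* on the E11.5 arrays, and 37 to 118 on the E17.5 arrays.

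*Krt7*, the type II keratin of ducts and glands, had log2 signals of 12.53, 12.78, 12.88, 12.87 and 12.86 on the E11.5 arrays. Its E17.5 signals were 13.71, 13.33, 13.21, 13.59 and 13.52. The lowest E11.5 value was that of array 1, and the stages were 0.33 apart at their closest. The mean rose from 12.78 ± 0.15 to 13.47 ± 0.20, which is 1.61-fold (log2 difference 0.69, SE 0.11, 95% interval 0.44 to 0.94, limma adjusted p = 0.00016).

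*Krt8*, the general type II keratin of simple epithelia, gave 13.21, 13.01, 12.94, 12.99 and 12.92 at E11.5. It gave 13.71, 13.55, 13.64, 13.76 and 13.62 at E17.5. Here array 1 was the highest of the E11.5 arrays, opposite to its place for the other 3 keratins, and the stages were 0.34 apart. The mean rose 1.56-fold, from 13.01 ± 0.11 to 13.65 ± 0.08 (log2 difference 0.64, SE 0.08, 95% interval 0.46 to 0.83, limma adjusted p = 2.1e-05).

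*Krt18*, the type I partner of *Krt8*, showed the smallest change. Its E11.5 signals were 13.60, 13.94, 14.00, 14.10 and 14.05 and its E17.5 signals 14.46, 14.30, 14.19, 14.39 and 14.36. The stages did not overlap, but their nearest arrays were only 0.092 apart, less than the range within either stage. The mean rose from 13.94 ± 0.20 to 14.34 ± 0.10, or 1.32-fold (log2 difference 0.40, SE 0.11, 95% interval 0.17 to 0.64, limma adjusted p = 0.0048). The count of brighter probe sets on the same array overlapped between stages, at 49 to 96 and 37 to 79. At E11.5 *Krt18* lay 0.89 to 1.35 below the highest value of its array and *Krt19* 2.66 to 3.22. At E17.5 *Krt18* lay 0.52 to 0.79 below it and *Krt19* 0.51 to 1.03. Whether signals so near the top of the scale were compressed was not tested.

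**Figure D1:**
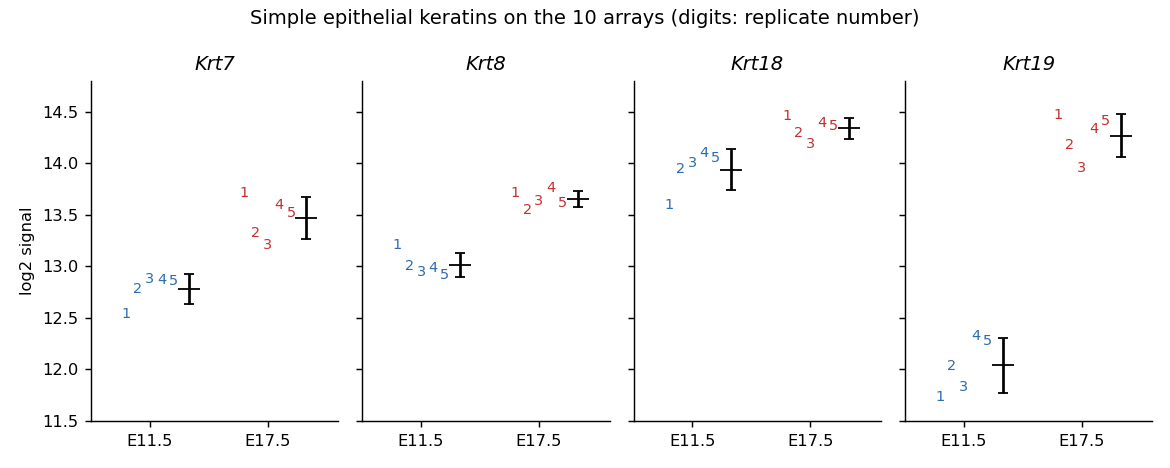
Log2 signal of each simple epithelial keratin on the 10 arrays, by stage. Digits are replicate numbers, horizontal lines are means and bars are SDs (n = 5). Every E17.5 array is above every E11.5 array in all 4 panels, and the distance is widest for *Krt19* (2.23) and narrowest for *Krt18* (0.40).

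The size of the smaller changes rested on the scaling of the arrays. With the deposited scaling the median log2 difference over all genes was 0.027, against -0.10 after median centring and -0.038 after quantile normalization. After quantile normalization the share of genes called higher was 31.9% and the share called lower 39%. *Krt18* then differed by 0.086 (limma adjusted p = 0.48), and after median centring by 0.27 (adjusted p = 0.068), so its call was lost under both. *Krt7* differed by 0.31 (adjusted p = 0.020) and *Krt8* by 0.29 (adjusted p = 0.0091) after quantile normalization, and both stayed past the threshold. *Krt19* differed by 1.86 (adjusted p = 1.3e-07) after quantile normalization and by 2.10 after median centring. In a test against a 2-fold change (treat), *Krt19* alone of the 4 passed (adjusted p = 7.4e-06). Of all genes, 19.3% were called higher in that test.

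**Figure D2:**
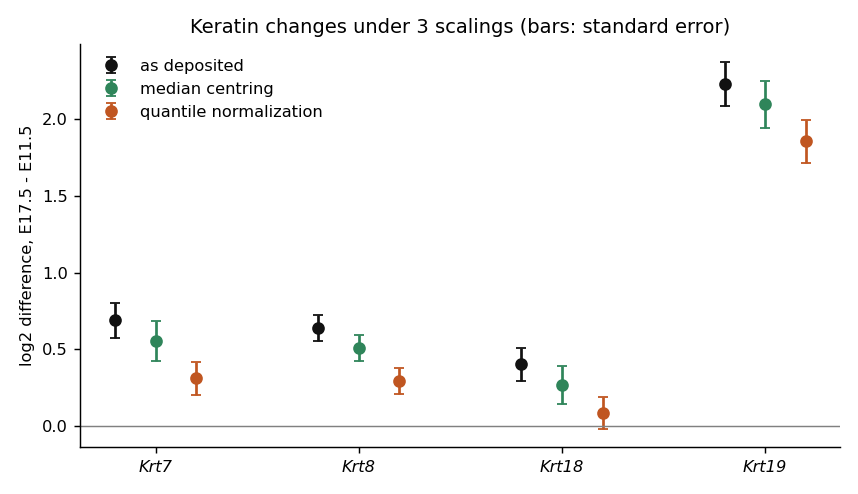
Log2 difference (E17.5 minus E11.5) of each keratin with the deposited scaling, after median centring of each array and after quantile normalization, with standard errors. *Krt19* is at 1.86 or above under all 3, whereas *Krt18* goes from 0.40 to 0.27 and 0.086.

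Differences between keratins on the same array do not depend on a shift of the whole array. For each of the 6 pairs the within-array log2 difference was compared between stages with a 2-sided exact permutation test, in which 5 against 5 arrays allow a smallest p of 0.0079, and p-values were adjusted over the 6 pairs. *Krt19* rose by 1.54 ± 0.10 (SE) more than *Krt7*, by 1.59 ± 0.18 more than *Krt8* and by 1.83 ± 0.09 more than *Krt18* (exact p = 0.0079 and adjusted p = 0.012 for each). In all 3 of these pairs the stages did not overlap. Relative to *Krt18*, the other type I keratin, *Krt19* was at -1.87, -1.91, -2.17, -1.77 and -1.78 on the E11.5 arrays and at 0.01, -0.12, -0.24, -0.06 and 0.05 on the E17.5 arrays. These values are differences of probe set signals and give no ratio of transcripts. *Krt18* lay nearer the top of the scale than *Krt19* at E11.5, and compression there was not tested for any of the 6 pairs.

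The remaining 3 keratins differed less from each other in their change. *Krt18* rose by less than *Krt7*, with a within-array difference of -0.29 ± 0.05 (SE) between stages (exact p = 0.0079, adjusted p = 0.012), and the arrays of the stages did not overlap. The type II keratins *Krt7* and *Krt8* differed in their change by -0.047 ± 0.14 (exact p = 0.74), which was 0.064 without E11.5 array 1. The partners *Krt8* and *Krt18* differed by -0.24 ± 0.14 (exact p = 0.12, adjusted p = 0.14). Without E11.5 array 1 this value was -0.37 and passed the threshold (exact permutation test, adjusted p = 0.019). On that array *Krt18* lay 0.39 above *Krt8* in signal, against 0.94 to 1.14 on the other E11.5 arrays.

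**Figure D3:**
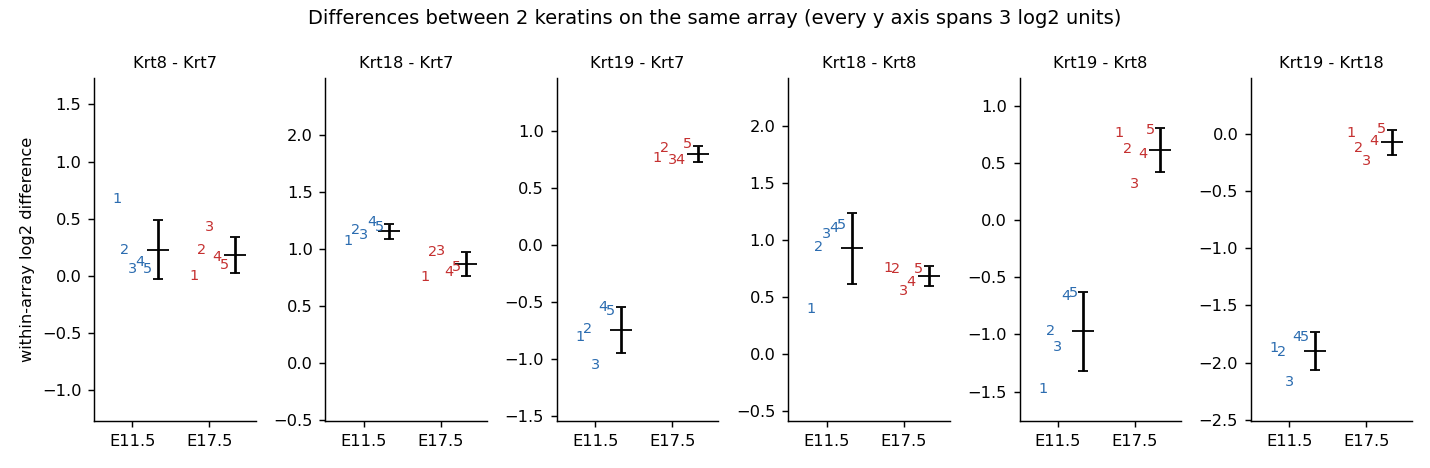
Within-array log2 difference of each pair of keratins, by stage, with every y axis spanning the same range. Digits are replicate numbers, and lines and bars are means and SDs (n = 5). The 3 pairs with *Krt19* are widely separated by stage, and E11.5 array 1 stands apart in *Krt8* minus *Krt7* and *Krt18* minus *Krt8*.

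Epithelial content could differ between a dissected and a sorted sample, so each keratin was also set against 18 epithelial adhesion and splicing markers on the same array. The mean of these markers ranged from 11.38 to 11.63 over the E11.5 arrays and from 11.72 to 12.02 over the E17.5 arrays. Of the 18, 8 were called higher and 5 lower, and after quantile normalization 6 and 8. Relative to that mean, *Krt19* rose by 1.90 ± 0.13 (SE) and *Krt7* by 0.36 ± 0.07 (exact permutation test, p = 0.0079, adjusted p = 0.016 over 4 keratins, for both). *Krt8* rose by 0.31 ± 0.09 (exact p = 0.024, adjusted p = 0.032), a call lost (adjusted p = 0.063) without any 1 of E11.5 arrays 2, 3, 4 and 5 or E17.5 arrays 2, 3 and 4, where the value was 0.28 to 0.30. *Krt18* differed by 0.069 ± 0.077 (exact p = 0.40) and overlapped between stages. After quantile normalization the value of *Krt18* was 0.26 (exact permutation test, adjusted p = 0.024).

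The choice of epithelial reference turned the direction for 3 of the keratins. *Epcam*, an epithelial adhesion molecule, rose by 1.91 (limma adjusted p = 1.9e-09), the largest rise among the 18 markers. *Cdh1*, E-cadherin, rose by 0.64 (limma adjusted p = 3.0e-06). Both genes are among the 18, so the 2 references overlap and are not separate support. Relative to the mean of *Epcam* and *Cdh1*, the difference between stages was -0.59 for *Krt7*, -0.64 for *Krt8* and -0.88 for *Krt18* (exact permutation test, p = 0.0079 each). *Krt19* was 0.95 higher relative to the same pair (exact p = 0.0079). Among the 4 keratins, only *Krt19* was therefore higher with the deposited signals, under both other scalings, and against both epithelial references at an adjusted p under 0.05 in each.

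The markers of other cell types moved with stage too, in both directions, where 36.9% of all genes were called higher and 31.5% lower. Mesothelium contains the 4 keratins, and of its 8 markers 4 were called higher and 1 lower, with a mean signal per array of 5.52 to 6.63 at E11.5 against 7.13 to 7.91 at E17.5. *Msln* rose by 5.48 and *Upk3b* by 2.25, while *Wt1*, a defining mesothelial transcription factor, was 6.46 ± 1.00 and 6.32 ± 0.49 (limma adjusted p = 0.79). E11.5 array 1, which had the lowest *Krt7*, *Krt18* and *Krt19* and the highest *Krt8* of its stage, also had the highest mesothelial mean (6.63, others 5.52 to 6.07). The same array had the highest E11.5 means of endothelial (6.99), leukocyte (6.50) and mesenchymal (7.80) markers and the lowest mean of the epithelial markers (11.38). Of cell types without simple epithelial keratins, 10 of 12 endothelial markers (mean 5.90 to 6.99 at E11.5, then 8.92 to 10.84) and 11 of 12 leukocyte markers (5.79 to 6.50, then 9.76 to 10.44) were called higher, and none lower. Mesenchymal markers gave 6 higher and 5 lower of 16 (6.90 to 7.80, then 7.58 to 8.66). Erythroid markers gave 1 higher and 4 lower of 6 (7.68 to 9.28, then 5.02 to 5.90), and smooth muscle markers 2 higher and 4 lower of 7 (median log2 difference -1.76). All 14 immediate early genes, which are known to respond to cell dissociation, were called higher (7.68 to 7.85, then 12.31 to 12.60). The part of these differences in the keratin values was not tested.

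Within the epithelium, the E17.5 arrays held genes of several lineages that carry simple keratins. Of 10 alveolar type 1 markers 9 were higher and 1 lower, and of 10 alveolar type 2 markers 8 were higher and 2 lower. Bronchiolar secretory markers gave 4 higher and 1 lower of 6, and ciliated markers 6 higher and 1 lower of 7. Of 8 tip progenitor markers 3 were called higher and 4 lower. *Sox9*, a transcription factor of tip cells, was 9.60 ± 0.09 and 9.58 ± 0.37 (limma adjusted p = 0.92), but was called lower after quantile normalization (adjusted p = 0.0041). *Bmp4*, 1 of the 3 higher (0.29, adjusted p = 0.032), was called lower after quantile normalization (-0.28, adjusted p = 0.043). It was not called after median centring or without any 1 of E11.5 arrays 3, 4 and 5 or E17.5 arrays 4 and 5 (adjusted p = 0.060 to 0.19). *Id2*, the gene whose promoter drove the label, rose by 2.10 (adjusted p = 9.0e-08). Basal cell markers gave 3 higher and 2 lower of 7. Among those not called was the defining basal cell keratin *Krt5*, at 5.94 ± 0.26 and 5.74 ± 0.21 (limma adjusted p = 0.23).

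The rest of the keratin family went both ways. Of 44 other keratin genes in the table, 9 were called higher and 7 lower and 28 did not pass the threshold, with a median log2 difference of -0.022. Over all genes 36.9% were called higher and 31.5% lower, larger shares than among these keratins. With genes dimmer than the median probe set left out, 3 of these keratins were called higher and 1 lower. Dim keratins were not tested there, and of the 9705 genes tested 48.8% were called higher and 35.1% lower. No other keratin had a signal above 9.39 on any array. Among the 4 other keratins of simple or glandular epithelia, *Krt80* rose by 3.22 (limma adjusted p = 2.1e-08) and *Krt23* by 2.12 (adjusted p = 1.3e-05). *Krt80* was 6.61, 5.74, 5.56, 5.94 and 5.58 at E11.5 and 9.39, 9.02, 9.27, 9.11 and 8.72 at E17.5. *Krt20*, a type I keratin of the gut and urothelium, fell by 2.56 (adjusted p = 2.2e-07), from 7.59 ± 0.28 to 5.03 ± 0.44. The fourth, *Krt222*, differed by 0.23 (adjusted p = 0.23, but 0.032 without E11.5 array 5).

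Keratins of basal and stratified epithelia went both ways, with 5 higher, 4 lower and 9 not called of 18. *Krt13* rose by 1.28 and *Krt4*, its type II partner in internal stratified epithelia, by 0.81 (limma adjusted p = 1.8e-06 and 0.00030). Means at E11.5 and E17.5 were low for *Krt13* (4.15 and 5.43), *Krt4* (4.80 and 5.61) and *Krt14* (4.67 and 4.97). No array had a median below 7.01. *Krt15*, a type I keratin of basal cells, rose by 1.03 (limma adjusted p = 0.00023), with means of 7.62 and 8.65. The epidermal pair *Krt1* and *Krt10* fell by 1.53 and 0.75 (adjusted p = 6.9e-06 and 0.00012). The other calls were *Krt6a* (0.62) and *Krt14* (0.30, adjusted p = 0.013 and 0.15 after median centring) upward and *Krt12* (-0.48) and *Krt17* (-0.34) downward. Of 21 hair and inner root sheath keratins 18 did not pass, *Krt34* rose by 0.59, and *Krt42* and *Krt33b* fell by 1.23 and 0.62. *Krt88*, which belonged to none of these lists and is named after its value was seen, rose by 0.49.

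**Figure D4:**
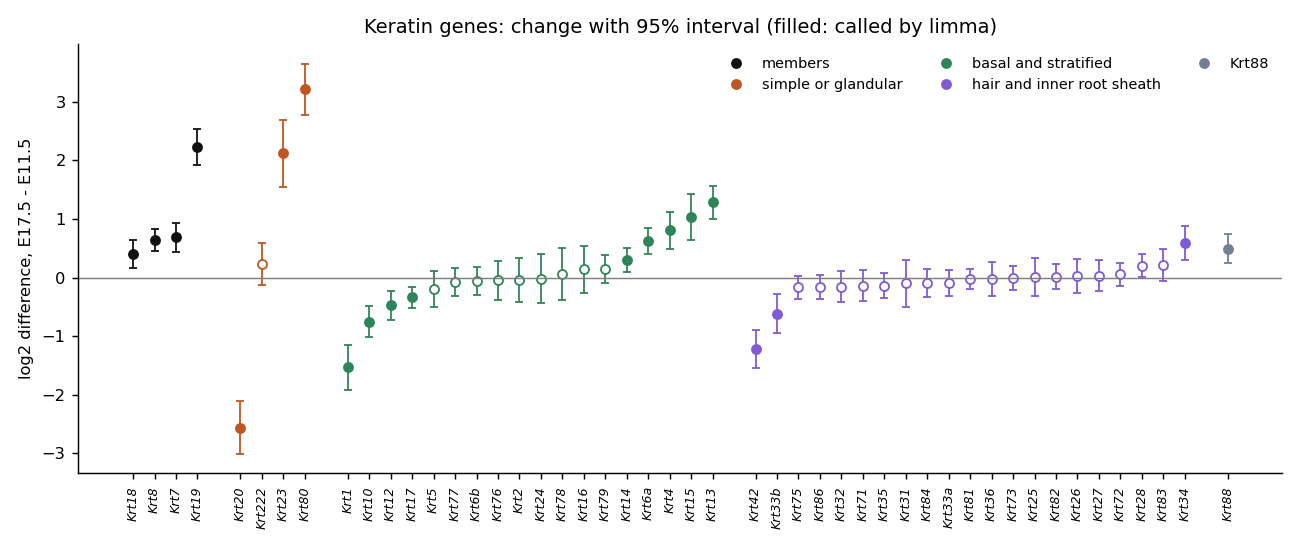
Log2 difference (E17.5 minus E11.5) of every keratin gene in the table, with 95% intervals, grouped by the epithelia they are known from. Filled points passed the limma threshold. Black points are *Krt7*, *Krt8*, *Krt18* and *Krt19*, and the other keratins have a median of -0.022 with *Krt80* highest (3.22) and *Krt20* lowest (-2.56).

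Genes that anchor keratin filaments changed in both directions, with 10 higher and 8 lower of 22. Calls both ways are common here, at 36.9% higher and 31.5% lower over all genes. Of 12 desmosomal plaque and plakin genes 9 were higher and 3 lower. *Plec*, plectin, rose by 2.64 (limma adjusted p = 3.5e-10), *Ppl*, periplakin, by 2.60 (adjusted p = 8.4e-10), and *Perp*, a desmosomal membrane protein, by 2.60 (adjusted p = 1.7e-09). *Dsp*, desmoplakin, which binds keratins at the desmosome, fell by 3.66, from 9.32 ± 0.20 to 5.66 ± 0.30 (adjusted p = 4.5e-10). *Pkp4*, a plakophilin, fell by 1.72 and *Eppk1*, epiplakin, which binds keratin filaments, by 0.74. The smallest rise, that of *Pkp1* (0.43, adjusted p = 0.032), was lost after median centring (adjusted p = 0.14) and without any 1 of E11.5 arrays 1, 2, 4 and 5 or E17.5 array 1 (adjusted p = 0.051 to 0.078).

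None of the 5 desmosomal cadherins measured was called higher. *Dsc2* and *Dsg2*, the desmosomal cadherins of simple epithelia, fell by 2.60 and 1.39 (limma adjusted p = 4.2e-09 and 3.6e-06). *Dsg1a*, *Dsc1* and *Dsc3* differed by -0.056, -0.048 and 0.16 and did not pass, although *Dsc3* passed without E11.5 array 4 (adjusted p = 0.046). Of 5 hemidesmosome genes, *Cd151*, a tetraspanin that binds laminin-receptor integrins, fell by 3.73 (adjusted p = 3.2e-10), *Itgb4*, integrin β4, by 1.09 and *Dst*, dystonin, by 1.01. *Col17a1* rose by 0.41 (adjusted p = 0.015, and 0.074 after median centring), and *Itga6*, integrin α6, differed by 0.11 (adjusted p = 0.47), while it was lower after quantile normalization (adjusted p = 0.0044).

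Proteins that bind, modify or chaperone keratins were represented by 12 genes, of which 5 were higher and 4 lower. These counts are near the shares of all genes, 36.9% higher and 31.5% lower. *Pof1b* rose by 5.85 (limma adjusted p = 2.6e-12), *Hspb1*, a small heat shock protein, by 3.95 (adjusted p = 4.4e-09), and *Sfn*, 14-3-3 sigma, by 2.59 (adjusted p = 1.9e-07). *Tgm2*, a transglutaminase, rose by 1.29, and *Hspa8*, the constitutive HSP70 chaperone, by 0.96. *Tchp*, trichoplein, which binds KRT8 and KRT18, fell by 0.57, and *Stub1*, a ubiquitin ligase, by 0.32. The 14-3-3 genes *Ywhae* and *Ywhah* fell by 0.27 and 0.23. The *Ywhah* call was lost without E11.5 array 2 or E17.5 array 1, 2 or 3 (adjusted p = 0.053 to 0.059). *Dnajb6*, *Ywhaz* and *Fbf1* differed by -0.43, -0.12 and -0.24 and did not pass, but were lower after quantile normalization, which gave 7 genes lower. *Dnajb6* and *Fbf1* were also lower after median centring (adjusted p = 0.027 and 0.026). *Dnajb6* also passed without E17.5 array 1 (adjusted p = 0.012) and *Fbf1* without E17.5 array 4 (adjusted p = 0.020).

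Other cytoplasmic intermediate filament genes are not partners of keratins and mark other cells. Of 13 such genes 7 were higher and 3 lower, against 36.9% and 31.5% of all genes. *Vim*, vimentin, the filament of mesenchymal cells and leukocytes, rose by 0.70 (limma adjusted p = 1.7e-05), close in size to *Krt7* and *Krt8*. *Synm*, synemin, rose by 3.28, *Sync*, syncoilin, by 2.55, and *Des*, desmin of muscle, by 2.50. The neurofilament genes *Nefl*, *Nefm* and *Nefh* fell by 3.00, 1.46 and 1.00. The smallest rises of the 7, those of *Gfap* and *Ina* (both 0.30), were lost after median centring (adjusted p = 0.14 and 0.23), and that of *Ina* also without any 1 of E11.5 arrays 1, 2, 4 and 5 or E17.5 arrays 2, 3 and 4 (adjusted p = 0.057 to 0.088). *Prph*, *Nes* and *Bfsp2* did not pass, with differences of 0.35, -0.42 and -0.0020. *Prph* passed as higher without E17.5 array 2 or 4 (adjusted p = 0.021 and 0.050) and after quantile normalization (adjusted p = 0.026), and *Nes* was lower without E17.5 array 5 (adjusted p = 0.030) and after quantile normalization (adjusted p = 0.019). Of the nuclear lamins, *Lmna* rose by 3.67 and *Lmnb2* by 1.51, and *Lmnb1* fell by 2.40.

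**Figure D5:**
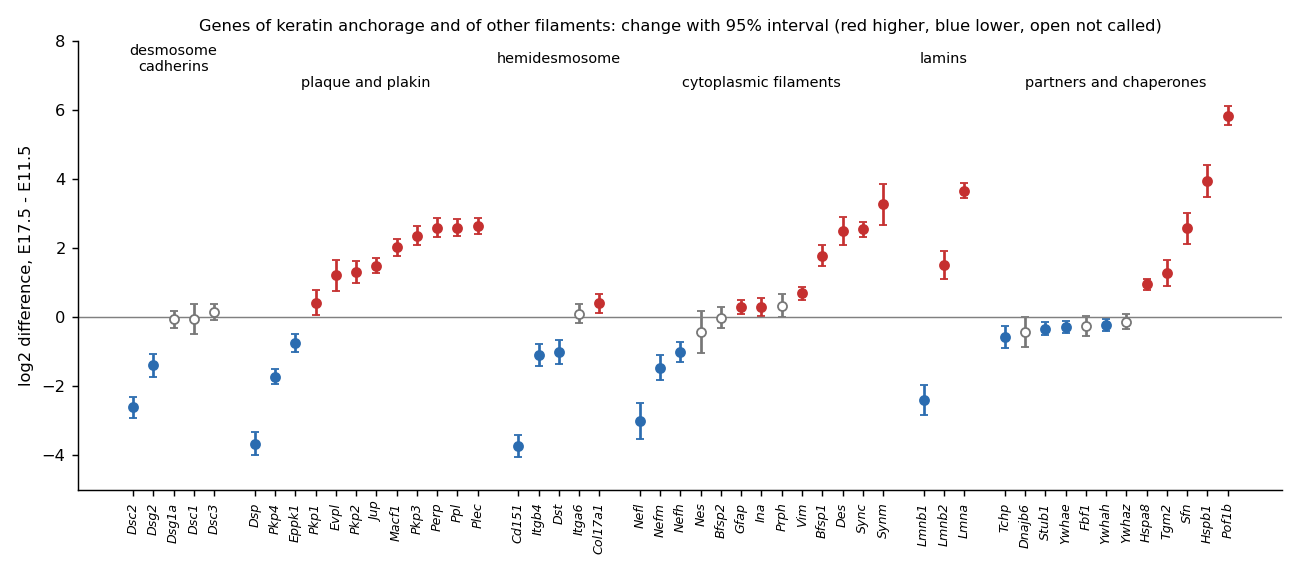
Log2 difference (E17.5 minus E11.5) of genes of keratin anchorage, of keratin partners and of other filaments, with 95% intervals. Red points were called higher, blue lower and open points were not called. *Dsp* (-3.66) and *Cd151* (-3.73) are the lowest and *Pof1b* (5.85) is the highest.

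Transcription factors of epithelia were mostly higher, at 12 of 17, with 4 lower, against 36.9% and 31.5% of all genes. *Ets2* rose by 5.19, *Elf5*, an ETS factor of the distal lung epithelium, by 5.00, *Grhl2*, a Grainyhead factor of epithelial identity, by 4.55 and *Cebpb* by 4.30, each with a limma adjusted p of 5.9e-10 or lower. *Tfap2c* and *Tfap2a*, AP-2 factors, fell by 1.11 and 0.98. *Klf5* fell by 0.57 (adjusted p = 0.023), a call lost without E11.5 array 2 or 3 or E17.5 array 5 (adjusted p = 0.052 to 0.058). *Grhl3* fell by 0.38 (adjusted p = 0.024), and this was lost without E11.5 array 4 (adjusted p = 0.065) or 5 (adjusted p = 0.050). *Ovol2* differed by -0.23 (adjusted p = 0.16), and was lower after quantile normalization (adjusted p = 0.00064) and after median centring (adjusted p = 0.037). No binding of these factors was measured.

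The genes with profiles most like those of the keratins were not keratins. Likeness was the root-mean-square difference over the 10 arrays after each gene's own mean was taken off, a description in which arrays and stage are shared by all genes. Nearest to *Krt19* were *Ppp4r3a* (0.0894), *Hipk2* (0.120) and *Esr1* (0.130). For *Krt7* they were *Cir1* (0.0743), *Psat1* (0.0823) and *Coq3* (0.0832), for *Krt8* *Abhd16a* (0.0660), *Ccdc107* (0.0686) and *Hsd17b4* (0.0727), and for *Krt18* *Hint2* (0.0604), *Naxe* (0.0677) and *Wdr41* (0.0787). Among the keratins themselves, *Krt7* and *Krt18* were closest (0.163), then *Krt7* and *Krt8* (0.194) and *Krt8* and *Krt18* (0.236). *Krt19* lay 0.782 to 0.922 from the other 3. Ranked by likeness to *Krt7* among all genes, *Krt18* was at place 159, *Krt8* at 422 and *Krt19* at 11924.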

How the data were processed

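Lung tip cells were measured on Affymetrix mouse arrays, 5 of E11.5 and 5 of E17.5. The authors extracted RNA with an RNeasy kit, amplified and labelled it with Ovation kits (NuGEN) and used Bioconductor in R. The deposited values are log2 signals of 21204 probe sets, a scale read from their range (2.47 to 15.03), with a normalization not given in the sources used here. Of the probe sets 17981 named 1 gene, 514 several and 2709 none in the platform annotation. A gene was represented by its brightest single-gene probe set (99.1% of genes had 1). The E11.5 arrays had medians of 7.01 to 7.14, and the E17.5 arrays of 7.14 to 7.23. Their upper quartiles lay further apart, at 9.42 to 9.46 and 10.00 to 10.04.

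Stages were compared with limma 3.58.1 in R 4.3.3, adjusted over 17813 genes, and within-array differences by exact permutation in Python 3.11.15 with SciPy 1.17.1. Figures were drawn with matplotlib 3.10.9. The fit was tested on simulated data. Alternatives were quantile normalization, median centring, other probe set choices, dim genes left out, a replicate block, array weights, trend and robust moderation, a 2-fold threshold, another epithelial reference and each array left out. Members and gene lists were chosen with earlier results of these data known, and the motifs after the promoter sequences were seen. Named genes are the members, up to 4 called genes with the largest difference per list (5 for other keratins), genes needed to name a count of 5 or fewer, *Epcam*, *Cdh1*, *Vim*, *Dsp* and *Plec*, and 3 nearest profiles per member. Further called genes were named beyond that rule, after their values were seen.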

Additional observations from a re-analysis of the deposited data

Results flagged for a closer look

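Of 188 groups of 5 arrays checked, 18 held 1 array apart from the other 4, with a gap to the nearest array above 0.71 of the group's range. Chance gives about 1 in 20 groups, here 9.4, and groups of genes on the same arrays are not independent. E11.5 replicate 1 was the array apart in 10 of them. Its *Krt8* minus *Krt7* difference was 0.67 (nearest array 0.23), its *Krt18* minus *Krt8* difference 0.39 (nearest 0.94) and its *Krt8* minus the epithelial markers 1.83 (nearest 1.47). On the same array *Krt23* was 6.75 (nearest 6.25), *Krt1* 6.74 (6.27) and *Hspb1* 7.81 (7.15), all high, and *Cldn6* 13.27 (13.54), *Rab25* 10.63 (11.13), *Cldn7* 12.39 (12.86) and *Crb3* 8.96 (9.70), all low. The last 4 genes belong to the epithelial markers, so their low values enter the comparison of *Krt8* with those markers.

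E17.5 replicate 3 stood apart for *Krt19* minus the epithelial markers (2.17, nearest 2.45), *Dsg1a* (3.36, nearest 3.10) and *Dsc1* (5.29, nearest 4.53). E17.5 replicate 4 was low for *Pof1b* (9.92, nearest 10.36) and *Spint2* (12.05, nearest 12.13). The other arrays apart were E11.5 replicate 3 for *Krt13* (4.31, nearest 4.14), E17.5 replicate 2 for *Krt4* (6.12, nearest 5.57) and E17.5 replicate 1 for *Tgm2* (10.35, nearest 10.89).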

How the results depend on the processing

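Of 478 alternative values, 433 kept their direction and side of the threshold or their size, 23 counts moved by over 1.5 times, 16 lost and 2 gained a call and 4 changed direction. Some of the 433 were not free to change. Median centring cannot alter a difference between 2 genes on 1 array, and averaging probe sets cannot alter the difference of a member with 1. The members called higher went from 4 to 3 after quantile normalization and after median centring, which also counts among the 433. *Krt18* lost its call after quantile normalization (0.086) and median centring (0.27). In the test against a 2-fold change 19.3% of all genes were called higher. There *Krt7* (0.69), *Krt8* (0.64) and *Krt18* (0.40) did not pass, which left 1 of 4 keratins called higher. Without suffixed probe sets (_x, _s or _a) *Krt7* and *Krt8* had none, which left 2. Against *Epcam* and *Cdh1* alone, *Krt7* (-0.59), *Krt8* (-0.64) and *Krt18* (-0.88) changed direction, and against all epithelial markers *Krt18* gained a call after quantile normalization (0.26). Leaving out each array in turn gave 0.63 to 0.75 for *Krt7*, 0.62 to 0.69 for *Krt8*, 0.32 to 0.44 for *Krt18* and 2.15 to 2.31 for *Krt19*, each past the threshold every time. It gave -0.11 to 0.064 for *Krt8* minus *Krt7*, -0.37 to -0.19 for *Krt18* minus *Krt8* and 0.28 to 0.39 for *Krt8* minus the epithelial markers.

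Replicate numbers did not pair the arrays (correlations of same-numbered deviations -0.29, -0.18, -0.01, -0.10 and 0.07). With the replicate number as a block 6385 genes were higher and 5349 lower, against 6568 and 5609, and no keratin of the 4 changed its call. Of the genes named here, *Ywhah* (adjusted p = 0.077), *Spint2* (0.056) and *Bmp4* (0.096) were not called with the block, and *Prph* was called higher (0.047). With the same pairing, flipping signs within pairs cannot go below an exact p of 0.0625, so *Krt18* minus *Krt7* (-0.29) and *Krt19* minus *Krt7* (1.54), *Krt8* (1.59) and *Krt18* (1.83) could not pass.

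With dim genes left out, 3 other keratins were higher and 1 lower, 5 desmosome, plakin and hemidesmosome genes were lower, 5 other filament and lamin genes were higher and 1 lower, and 0 transcription factors were lower. Genes with a mean below that of the median probe set were not tested there, so calls on dim genes drop out of those counts. All 4 simple epithelial keratins stayed called higher there, where 48.8% of the 9705 genes tested were called higher and 35.1% lower. Against a 2-fold change, other keratins gave 2 higher and 2 lower, anchorage genes 6 higher and 5 lower, partners 3 higher and 0 lower, transcription factors 0 lower, and epithelial markers 1 higher and 1 lower. Without suffixed probe sets, anchorage genes gave 5 higher and 5 lower and partners 2 higher and 2 lower. After quantile normalization 7 partners and 8 epithelial markers were lower. The number of arrays limits the precision, and compression of signals near the top of the scale was not tested.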

Other observations

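In the RefSeq gene order of GRCm38.p6, used here for neighbours only and looked at after the values were seen, the 4 keratins lie beside genes that changed by other amounts. On chromosome 11 *Krt19* (2.23) lies beside *Krt15* (1.03) and *Krt13* (1.28), which were also called higher, followed by *Krt36* (-0.025, limma adjusted p = 0.88). On its other side, past *Krt9*, which was not analysed here, *Krt14* was called higher (0.30) and *Krt16* was not (0.14, adjusted p = 0.52). On chromosome 15 *Krt7* (0.69) lies beside *Krt80*, which rose by 3.22, with *Atg101* (-0.12, adjusted p = 0.35) further on that side. On its other side *Krt88* was called higher (0.49) and *Krt81* was not (-0.028, adjusted p = 0.78). *Krt8* and *Krt18* are next to each other. Beyond *Krt8* lie *Krt78* (0.065) and *Krt79* (0.15), which did not pass, and *Krt4* (0.81), which did. Beyond *Krt18* lie 3 genes outside the keratin family, and all were called higher: *Eif4b*, a translation initiation factor (0.54, adjusted p = 0.00078), *Tns2*, a tensin of focal adhesions (2.83, adjusted p = 5.8e-09), and *Spryd3* (0.46, adjusted p = 0.00035).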
